A study of Mus musculus with 18 samples.

Results

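Epididymal white adipose tissue, the visceral fat beside the testis and epididymis, was compared between ZT12 and ZT3 in C57BL/6 mice kept on a shiftwork light schedule. The comparison rests on 6 of the study's 18 RNA sequencing libraries, 3 at ZT12 and 3 at ZT3, chosen by their labels and not by any measured value. ZT12 shiftwork and ZT3 shiftwork mice had spent 24 weeks on a rotating week of 4 days on a regular cycle and 3 days on the reversed one, each with 12 h of light per day. ZT12 control and ZT3 control mice, again with 3 libraries each, stayed on the regular cycle throughout. Their libraries serve here to test whether the time difference depended on the schedule. Fitted together with the shiftwork libraries, they also enter the estimate of spread that the main test uses. ZT3 falls in the light phase of the regular cycle and ZT12 at its lights-off. The labels give neither the age of the mice nor the day of the week on which tissue was taken, so whether the last lights-off before sampling belonged to the regular or the reversed cycle is not known. They also do not say whether each sample is a separate animal, so the p-values below measure only the spread between these samples, which may be partly technical.

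Fat cells, like most cells, hold a circadian clock. BMAL1 (gene Arntl) and CLOCK bind E-box elements in DNA and activate the Period and Cryptochrome genes, whose proteins then inhibit them. REV-ERB proteins (Nr1d1, Nr1d2) repress and ROR proteins activate Arntl through ROR elements, and the factors DBP, TEF and HLF compete with the repressor NFIL3 (E4BP4) at D-box elements of output genes. In mouse fat this clock is known to time lipolysis, lipid synthesis and the release of adipokines, and immune cells of the tissue carry it too.

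The promoters of 4 clock genes discussed below are printed to show the elements on which this scheme rests. Each is the window from 250 bases before to 50 bases after the start given by RefSeq (GRCm38.p6), read 5′ to 3′ on the gene's strand, with E-box (CACGTG) or D-box (TTATGTAA) letters in capitals. Both strands were searched, and none of the printed sites overlaps another motif searched (0 overlaps). The Per1 window is chr11:69098699-69098998 on the plus strand, with its E-box 166 bases before the start (position -166). The Cry1 window is chr10:85185005-85185304 on the minus strand (E-box at -60), and the Tef window is chr15:81802423-81802722 on the plus strand (E-box at -127). The Per3 window, chr4:151044616-151044915 on the minus strand, holds 2 D-box copies, the first at -205.
Per1: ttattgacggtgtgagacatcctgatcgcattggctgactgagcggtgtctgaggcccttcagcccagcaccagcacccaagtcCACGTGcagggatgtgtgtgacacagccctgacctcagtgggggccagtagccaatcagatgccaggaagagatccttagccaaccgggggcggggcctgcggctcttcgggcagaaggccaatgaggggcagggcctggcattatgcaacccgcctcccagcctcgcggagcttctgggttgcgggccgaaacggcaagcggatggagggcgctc
Cry1: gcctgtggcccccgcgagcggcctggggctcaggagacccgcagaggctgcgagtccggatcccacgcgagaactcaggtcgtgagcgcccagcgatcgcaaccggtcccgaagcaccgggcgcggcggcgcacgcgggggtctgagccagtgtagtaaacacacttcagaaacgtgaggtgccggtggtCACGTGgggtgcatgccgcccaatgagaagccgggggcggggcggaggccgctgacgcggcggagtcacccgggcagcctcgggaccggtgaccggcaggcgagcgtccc
Tef: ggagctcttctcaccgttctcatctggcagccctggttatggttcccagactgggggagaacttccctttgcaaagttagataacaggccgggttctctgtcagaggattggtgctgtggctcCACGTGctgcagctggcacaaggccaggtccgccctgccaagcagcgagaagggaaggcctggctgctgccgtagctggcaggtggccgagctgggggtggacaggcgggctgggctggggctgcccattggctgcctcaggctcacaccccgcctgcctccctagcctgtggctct
Per3: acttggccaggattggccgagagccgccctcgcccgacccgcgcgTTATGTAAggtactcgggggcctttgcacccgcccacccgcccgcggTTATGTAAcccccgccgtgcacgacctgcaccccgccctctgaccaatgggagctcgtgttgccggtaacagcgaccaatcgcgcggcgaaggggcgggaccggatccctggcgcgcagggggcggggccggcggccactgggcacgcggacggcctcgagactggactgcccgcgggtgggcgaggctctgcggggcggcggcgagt

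RefSeq windows were matched for 8 of 10 tested clock repressors, and 4 of their 9 windows held the E-box letters (Bhlhe41, Ciart, Cry1 and Per1), against 9.37% of the 14823 windows of all tested genes. The D-box letters stood in 0.573% of all windows and, among the repressors, in that of Per3. The ROR element (AGGTCA, 12.9% of all windows) occurred, among the activators, in windows of Arntl and Clock, and among the repressors in those of Nr1d2 and Per1. These are matches of letters within short windows and not measured binding sites.

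The 6 shiftwork libraries held 20458603 to 22209844 assigned reads, and 3 reads of a gene, taken as the floor of detection, came to 0.131 to 0.146 CPM (reads scaled to a common library size after TMM normalization). Adipocyte markers were present in all 6: 19 of 20 adipocyte identity genes stood above 1 CPM in each library. ZT3 replicate 3 stood apart. Its 20 spermatid markers, genes of the haploid germ cells of the testis, summed to 9390 CPM, against 62.3 and 72.7 CPM in ZT3 replicates 1 and 2. The same sum was 173, 60.2 and 88.7 CPM in the ZT12 libraries, of which replicates 1 and 3 also carried low levels, with 19 and 15 of the 20 markers above 1 CPM against 3 in ZT12 replicate 2. Prm2, a protamine that packs sperm DNA, stood at 18.1, 0.19 and 4.11 CPM at ZT12 and at 0.47, 1.12 and 1232 CPM at ZT3. In ZT3 replicate 3 the summed adipocyte genes were lowest, at 11400 CPM, against 22094 to 26519 CPM at ZT12 and 30334 and 31848 CPM in the other ZT3 libraries. Of all tested genes 3381 (22.3%) were over 2 times higher in that library than in both other ZT3 shiftwork libraries. ZT12 replicate 2 held intestinal transcripts, with 609 CPM summed over 16 markers, against 8.39 and 32.4 CPM in the other ZT12 libraries and 11.8 to 37.7 CPM at ZT3. Most fold changes and list medians that ZT3 replicate 3 moved by more than 1.5 times are also given without it.

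**Figure D1:**
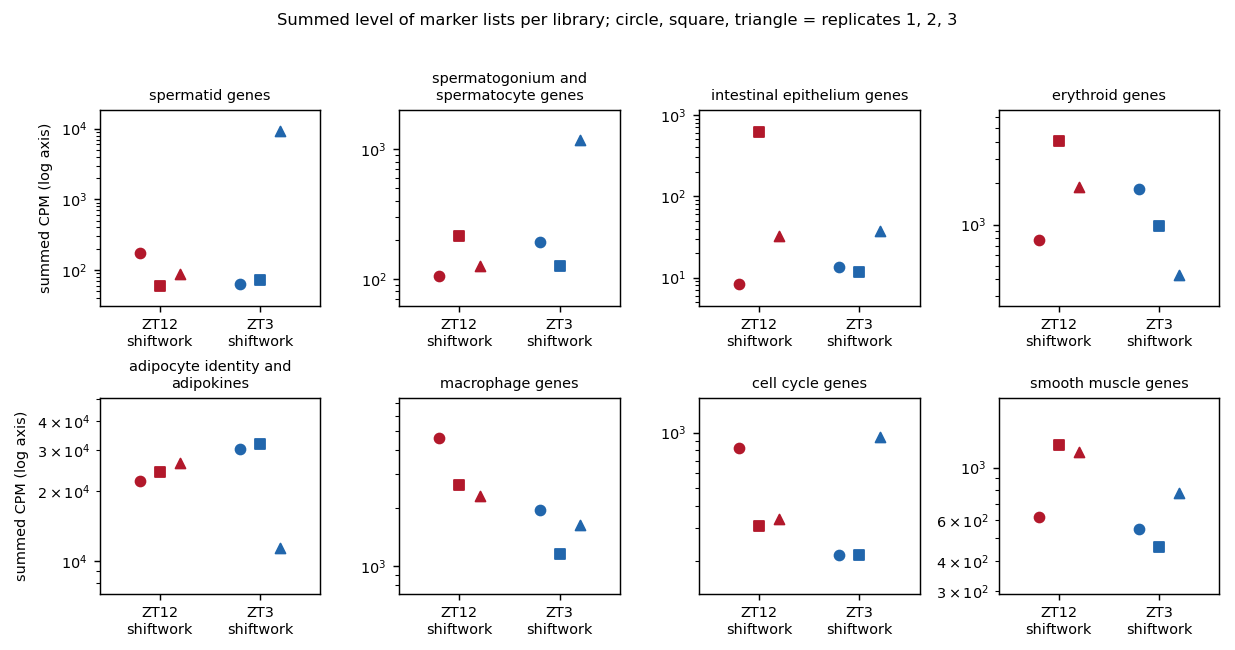
Summed level (CPM, log axis) of 8 marker lists in each shiftwork library, ZT12 in red and ZT3 in blue, with circles, squares and triangles for replicates 1, 2 and 3. ZT3 replicate 3 is highest for spermatid genes (9390 CPM) and lowest for adipocyte genes (11400 CPM), and ZT12 replicate 2 is highest for intestinal genes (609 CPM).

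Across the genome, macrophage, lysosomal, acute phase, antigen presentation and matrix genes leaned higher at ZT12, while most core clock genes differed little. No single gene passed the main test: 0 of 15141 tested genes (0%) had an adjusted p under 0.05 by edgeR's quasi-likelihood test, and the smallest adjusted p was 0.280. Without adjustment 2461 genes (16.3%) had p under 0.05, of which 879 (5.81%) were higher and 1582 (10.4%) lower at ZT12. The lower set held 16 of 19 tested spermatid genes. The 3381 genes over 2 times higher in ZT3 replicate 3 than in both other ZT3 shiftwork libraries had a median log2 fold change of -0.99. By DESeq2, run as an alternative on the same counts, 266 genes (1.76%) were called, 141 higher (0.931%) and 125 lower (0.826%). Of the 125 lower calls, 41 were among those 3381 genes, which are 22.3% of all tested genes. On the deposited log2 FPKM, limma called 0. Without ZT3 replicate 3, edgeR still called 0 (smallest adjusted p = 0.0559), and DESeq2 called 768 (4.99%), 537 higher (3.49%) and 231 lower (1.5%), with 163 in common with its first set. As a description without a test, all 3 ZT12 libraries lay above all 3 ZT3 libraries for 1370 genes (9.05%) and below them for 1149 genes (7.59%), with a median log2 fold change over all tested genes of -0.03 and 46.4% of them above 0. The shares of non-overlapping genes are the background for the counts of non-overlapping genes below. Fold changes are log2 values of ZT12 over ZT3 with their standard error (SE, n = 3 per group) from edgeR.

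No clock gene passed the test between the times, and most fold changes were smaller than their own SE or close to it. Of 6 tested activators, 2 lay higher and 4 lower at ZT12, all with overlap. Arntl stood at 9.15, 6.99 and 8.80 CPM at ZT12 and at 4.84, 16 and 9.89 CPM at ZT3. The ZT12 libraries lay within the range of the ZT3 libraries, and the fold change was -0.30 ± 0.44 (edgeR adjusted p = 0.779). In control mice Arntl stood at 4.89, 5.58 and 4.56 CPM at ZT12 and at 23.3, 52.4 and 20.3 CPM at ZT3, without overlap. The difference between the schedules, the interaction term, was 2.37 ± 0.62 (edgeR unadjusted p = 0.00353, adjusted p = 0.419, DESeq2 adjusted p = 0.0290). Clock, the partner of BMAL1, stood at 121, 122 and 118 CPM at ZT12 and at 136, 150 and 97.0 CPM at ZT3 (-0.08 ± 0.18). Its interaction was 0.73 ± 0.25 (unadjusted p = 0.0167). Npas2, a paralog of Clock, was near 1 CPM in 5 of the 6 libraries or below it and at 4.55 CPM in ZT3 replicate 3; its fold change was -1.18 ± 0.87 with that library and 0.43 without it. Arntl2, a paralog of Arntl, gave 0.01, and Rora, which encodes a ROR activator of Arntl, gave 0.03.

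Period and Cryptochrome genes, which encode the repressors of BMAL1 and CLOCK, overlapped between the times. Per1 stood at 88.6, 91.7 and 96.8 CPM at ZT12 and at 104, 94.9 and 114 CPM at ZT3 (-0.17 ± 0.27). Per2 stood at 49.6, 79.3 and 41.1 CPM at ZT12 and at 59.1, 42.1 and 45.3 CPM at ZT3. Both genes overlapped between the times, Per2 with a fold change of 0.21 ± 0.29 (edgeR adjusted p = 0.761). Controls had 81.8, 79.0 and 99.2 CPM of Per2 at ZT12 and 24.1, 25.8 and 45.2 CPM at ZT3, and the Per2 interaction was -1.24 ± 0.41 (unadjusted p = 0.0135, adjusted p = 0.458). Per3 stood at 88.9, 105 and 101 CPM at ZT12 and at 138, 108 and 62.8 CPM at ZT3, with ZT3 replicate 3 the lowest (-0.06 ± 0.42, interaction -1.42 ± 0.59). Cry1 gave -0.50 ± 0.33, or -0.04 without ZT3 replicate 3, whose 27.6 CPM of Cry1 was the highest of the 6 (the others 11 to 15.3 CPM). Cry2 gave -0.03 and Ciart, a further inhibitor of BMAL1, -0.68 ± 0.54.

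REV-ERB genes lay lower at ZT12. Nr1d1, which encodes REV-ERB alpha, stood at 78.6, 91.9 and 168 CPM at ZT12 and at 218, 265 and 114 CPM at ZT3. The groups overlapped through ZT12 replicate 3 and ZT3 replicate 3, and the fold change was -0.82 ± 0.34 (edgeR unadjusted p = 0.0367, adjusted p = 0.288). Without ZT3 replicate 3 it was -1.11 and passed DESeq2's test (adjusted p = 0.0115). Controls had 84.3, 84.5 and 80.7 CPM of Nr1d1 at ZT12 and 201, 138 and 203 CPM at ZT3, and the interaction was 0.30 ± 0.48 (unadjusted p = 0.548). Nr1d2 (REV-ERB beta) stood at 66.1, 81.7 and 86.7 CPM at ZT12 and at 146, 104 and 92.4 CPM at ZT3. It was the only 1 of 10 tested repressors whose groups did not overlap (-0.55 ± 0.29, adjusted p = 0.367). That share is near the 7.59% of all tested genes that lay below without overlap. In controls Nr1d2 differed by 0.58, and its interaction was -1.12 ± 0.41 (unadjusted p = 0.0205). Bhlhe40 and Bhlhe41, which encode the E-box repressors DEC1 and DEC2, gave 0.29 ± 0.46 and -0.05 ± 0.27.

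Among 12 tested output genes, 5 lay higher and 7 lower at ZT12. Dbp stood at 65.0, 68.8 and 66.6 CPM at ZT12 and at 97.0, 79.4 and 51.2 CPM at ZT3 (-0.18 ± 0.48). Tef stood at 189, 241 and 222 CPM at ZT12 and at 280, 249 and 166 CPM at ZT3 (-0.09 ± 0.27). For both genes the ZT12 libraries lay between ZT3 replicate 3, the lowest, and ZT3 replicate 1, the highest. Controls had 238, 218 and 264 CPM of Tef at ZT12 and 157, 71.1 and 124 CPM at ZT3, with an interaction of -1.13 ± 0.39 (unadjusted p = 0.0159). Hlf stood at 22.6, 26.5 and 24.7 CPM at ZT12 and at 41.2, 29.2 and 33.0 CPM at ZT3, without overlap (-0.49 ± 0.37). Nfil3, the repressor at the same D-box elements, leaned the other way. It stood at 19.5, 18.7 and 11.7 CPM at ZT12 and at 4.70, 12.5 and 5.34 CPM at ZT3 (1.15 ± 0.54, edgeR unadjusted p = 0.0582, adjusted p = 0.316). In controls Nfil3 differed by -1.06, and its interaction was 2.21 ± 0.75 (unadjusted p = 0.0151, adjusted p = 0.466). Usp2, a deubiquitinase under clock control, stood at 243 CPM in ZT3 replicate 3 and at 17.0 to 34.7 CPM in the other 5 libraries, so its fold change of -1.81 turned to 0.50 without that library. Tsc22d3, Klf10, Nampt and Klf15 gave 0.48, 0.33, 0.03 and 0.02, and Klf9, Leo1 and Wee1 gave -0.09, -0.28 and -0.41. Without ZT3 replicate 3 the fold change was -0.26 for Clock, -0.24 for Arntl2 and -0.17 for Rora among the activators. Among the repressors it was -0.12 for Per1, -0.33 for Per3, -0.25 for Cry2, -0.36 for Ciart, 0.49 for Bhlhe40 and 0.01 for Bhlhe41. Among the output genes it was -0.41 for Dbp, -0.29 for Tef, 0.20 for Tsc22d3, 0.22 for Wee1, -0.26 for Nampt, -0.32 for Klf9 and -0.35 for Klf15. Of these genes, Arntl2, Rora, Bhlhe41, Wee1, Nampt and Klf15 had the other sign with all libraries. With all libraries DESeq2 called 0 clock genes, and it gave no adjusted p for Usp2.

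**Figure D2:**
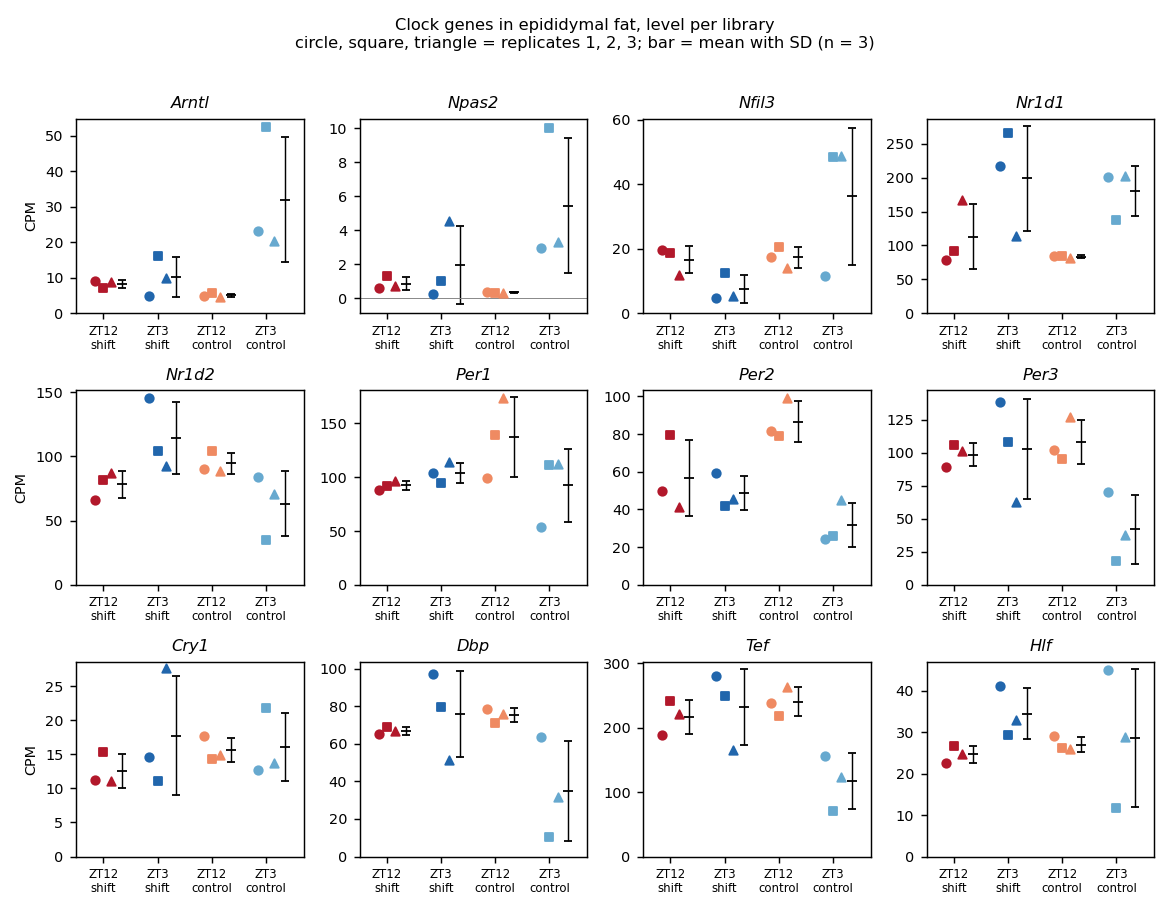
Level (CPM) of 12 clock genes in each library of ZT12 shiftwork, ZT3 shiftwork, ZT12 control and ZT3 control mice, with the mean and SD of 3 libraries beside the points. Under shiftwork Arntl stood between 6.99 and 9.15 CPM at ZT12 and between 4.84 and 16 CPM at ZT3, whereas the control groups did not overlap; Nr1d2 and Hlf did not overlap under shiftwork.

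The tests of the interaction bear on whether the clock's time difference differed between the schedules. Over all genes edgeR called 0 of 15141 (0%, smallest adjusted p = 0.372, and 1535 genes or 10.1% at unadjusted p under 0.05, 4.35% positive and 5.79% negative), and DESeq2 called 187 (1.24%), 116 positive (0.766%) and 71 negative (0.469%). In the fit without ZT3 control replicates 1 and 3 and ZT3 shiftwork replicate 3, an alternative planned with earlier results of these data known, edgeR called 7 genes (0.0452%), 2 positive (0.0129%) and 5 negative (0.0323%). They included Dbp (-3.21, adjusted p = 0.0010), Per3 (-2.86, adjusted p = 0.0247) and Tef (-2.02, adjusted p = 0.0313). In that fit ZT3 control replicate 2 was the sole ZT3 control and was assumed to vary like the other groups. It was the lowest ZT3 control for all 3 genes, with 10.6 CPM of Dbp against 63.4 and 31.4 CPM in the ZT3 controls left out, 18.3 CPM of Per3 against 70.3 and 37.4 CPM, and 71.1 CPM of Tef against 157 and 124 CPM. With all libraries the interactions were smaller and none passed edgeR's adjusted test, at -1.27 ± 0.68 for Dbp (adjusted p = 0.520), -1.42 for Per3 (adjusted p = 0.484) and -1.13 for Tef (adjusted p = 0.470). Markers of the vas deferens summed to 3.06 to 44 CPM in the shiftwork libraries, against 11562 and 12152 CPM in ZT3 control replicates 1 and 3 and 13.1 CPM in ZT3 control replicate 2. Without ZT3 shiftwork replicate 3 alone, edgeR called 15 genes for the interaction (0.0975%), 10 positive (0.065%) and 5 negative (0.0325%).

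Macrophage genes lay higher at ZT12. All 21 tested members of the macrophage list did so, with a median of 0.95, 15 of them without overlap (against 9.05% of all tested genes), and 2 passed DESeq2's test (against 0.931% of all genes). Lyz2, the lysozyme of macrophages, stood at 1087, 494 and 457 CPM at ZT12 and at 263, 173 and 294 CPM at ZT3 (1.48 ± 0.35, edgeR adjusted p = 0.280, DESeq2 adjusted p = 0.00852). Cd68, a lysosomal membrane protein used as a macrophage marker, stood at 210, 113 and 102 CPM at ZT12 and at 63.0, 35.3 and 60.4 CPM at ZT3. Every ZT12 library lay above every ZT3 library for both genes, and Cd68 gave 1.42 ± 0.41 (DESeq2 adjusted p = 0.0473). Csf1r, the receptor of the growth factor on which macrophages depend, stood at 424, 275 and 265 CPM at ZT12 and at 233, 129 and 172 CPM at ZT3 (0.85 ± 0.27). Trem2, a lipid receptor of macrophages in fat, gave 1.68 ± 0.60. ZT12 replicate 1 was the highest library for each of these 4 genes, and without it the list's median was 0.62. In controls the median was 1.28, and 0 of 21 members had an interaction with unadjusted p under 0.05 (against 10.1% of all tested genes). In bulk tissue more cells of a type and more RNA of their genes per cell cannot be told apart.

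Lysosomal genes, many of which macrophages express strongly, followed. Of 30 tested lysosome and autophagy genes, 25 lay higher at ZT12 and 18 did so without overlap, with a median of 0.33, or 0.21 without ZT3 replicate 3. Ctsk, a collagen-degrading cathepsin, stood at 44.4, 37.2 and 42.5 CPM at ZT12 and at 23.9, 19.1 and 29.9 CPM at ZT3 (0.77 ± 0.25). Tfeb, the transcription factor that activates lysosomal genes, gave 0.34 ± 0.13, also without overlap. None of the 30 was called by edgeR or, with all libraries, by DESeq2.

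Acute phase genes lay higher at ZT12. Hp encodes haptoglobin, the scavenger of free haemoglobin that fat cells secrete, and stood at 4684, 3805 and 4242 CPM at ZT12 and at 1329, 1122 and 2425 CPM at ZT3. Its groups did not overlap (1.38 ± 0.34, edgeR adjusted p = 0.280, DESeq2 adjusted p = 0.00860), with ZT3 replicate 3 the nearest to ZT12. Without that library Hp gave 1.78. Saa3, a serum amyloid of fat and macrophages, stood at 61.9, 39.0 and 20.2 CPM at ZT12 and at 4.08, 5.30 and 13.7 CPM at ZT3 (2.39 ± 0.59, DESeq2 adjusted p = 0.00947). Socs3, the feedback inhibitor of cytokine signalling, stood at 14.9, 14.5 and 10.5 CPM at ZT12 and at 7.12, 5.25 and 8.14 CPM at ZT3 (0.96 ± 0.41). Of 16 tested genes of the list, 15 lay higher with a median of 0.61, 9 of them without overlap. The control median was 0.23, and 1 of 16 members had an interaction with unadjusted p under 0.05 (against 10.1% of all tested genes). Outside the list, Cfb, factor B of the alternative complement pathway, stood at 606, 536 and 592 CPM at ZT12 and at 304, 247 and 284 CPM at ZT3 (1.05 ± 0.23, DESeq2 adjusted p = 0.00772). Cfb and Hp were also called by edgeR in the fit without 3 ZT3 libraries (adjusted p = 0.0290 and 0.0141).

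Genes of antigen presentation through MHC class I lay higher at ZT12. All 12 tested class I and immunoproteasome genes were higher, with a median of 0.46, 8 without overlap, and 5 passed DESeq2's test (against 0.931% of all genes). H2-K1, a class I heavy chain, stood at 831, 839 and 904 CPM at ZT12 and at 592, 545 and 608 CPM at ZT3 (0.56 ± 0.16, DESeq2 adjusted p = 0.0254). Psmb8, a catalytic subunit of the immunoproteasome that cuts peptides for class I, stood at 55.4, 38.8 and 47.4 CPM at ZT12 and at 32.1, 31.6 and 33.9 CPM at ZT3. Its fold change was 0.54 ± 0.12 (DESeq2 adjusted p = 0.0204), and the related Psmb10 gave 0.74 ± 0.19. Tapbp, the tapasin chaperone that loads peptides, gave 0.45 ± 0.11 (DESeq2 adjusted p = 0.0102). In controls the list's median was 0.91. The interaction lay below 0 for all 12 genes, 7 of them with unadjusted p under 0.05, among them H2-K1 (-0.61 ± 0.22, unadjusted p = 0.0186) and Psmb8 (-0.52 ± 0.17, unadjusted p = 0.0125). Over all tested genes 5.79% had a negative interaction at that threshold, and after adjustment edgeR called none of the 12 (adjusted p = 0.475 for H2-K1 and 0.458 for Psmb8). Class I heavy chain genes have near-identical copies, so reads may be split between paralogs.

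B2m encodes the light chain shared by all class I molecules, and its promoter is printed because an element bound by interferon-regulated factors (GAAA, any 2 bases, GAAA, on either strand, 3.18% of all 14823 windows) lies in it. The window is chr2:122147437-122147736 on the plus strand (GRCm38.p6, RefSeq), with the element in capitals, 139 bases before the start (position -139) and overlapping no other motif searched. The element occurred in 2 of 11 windows of the class I list (B2m and H2-T23) and in 11 of 19 windows of the interferon response list.
B2m: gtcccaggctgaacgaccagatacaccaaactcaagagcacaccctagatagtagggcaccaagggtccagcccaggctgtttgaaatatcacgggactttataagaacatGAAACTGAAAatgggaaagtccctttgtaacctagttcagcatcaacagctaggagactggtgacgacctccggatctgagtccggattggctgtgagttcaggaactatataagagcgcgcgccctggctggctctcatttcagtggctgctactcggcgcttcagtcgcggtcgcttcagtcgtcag

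B2m stood at 1818, 2018 and 2113 CPM in ZT12 shiftwork libraries and at 1698, 1622 and 1318 CPM in ZT3 shiftwork libraries, without overlap (0.36 ± 0.16, edgeR unadjusted p = 0.0472). Control mice had 2650, 2395 and 2577 CPM of B2m at ZT12 and 1381, 1516 and 1240 CPM at ZT3, and the interaction was -0.52 ± 0.22 (unadjusted p = 0.0423). All 3 ZT12 control libraries lay above all 3 ZT12 shiftwork libraries. MHC class II genes, which present peptides to helper T cells, were higher at ZT12 in 7 of 7, with a median of 0.43, or 0.71 without ZT3 replicate 3. H2-Aa stood at 428, 389 and 516 CPM at ZT12 and at 299, 256 and 460 CPM at ZT3, where replicate 3 overlapped the ZT12 libraries (0.39 ± 0.20). H2-DMb1, a chain of the peptide exchanger of class II, stood at 24.0, 22.7 and 26.9 CPM at ZT12 and at 10.4, 9.04 and 21.1 CPM at ZT3 (0.86 ± 0.29, or 1.32 without ZT3 replicate 3). All 7 passed DESeq2's test without ZT3 replicate 3 (against 3.49% of all genes), and 0 with it. The control median was 1.23, and the interaction lay below 0 for all 7, with 4 at unadjusted p under 0.05 (against 5.79% of all tested genes).

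Interferon response genes showed the smallest difference of these immune lists. Of 25 tested genes, 20 lay higher at ZT12, 5 without overlap, with a median of 0.22, or 0.06 without ZT12 replicate 1. In controls all 25 were higher, with a median of 0.88. The interaction lay below 0 for 24 of 25 genes (median -0.72), and 10 had unadjusted p under 0.05, against 5.79% of all tested genes in that direction. Zbp1, a sensor of viral nucleic acid, stood at 18.0, 12.2 and 12.1 CPM at ZT12 and at 6.89, 5.98 and 8.93 CPM at ZT3 (0.96 ± 0.27, edgeR unadjusted p = 0.00550). Irgm2, an interferon-induced GTPase, was among the 6 genes chosen below for their small interaction p. It stood at 53.9, 41.4 and 52.6 CPM at ZT12 shiftwork and at 42.4, 45.7 and 38.8 CPM at ZT3 shiftwork, which overlap, against 77.5, 71.6 and 62.6 CPM at ZT12 control and 31.7, 32.4 and 31.2 CPM at ZT3 control. Its interaction was -0.93 ± 0.17 (edgeR adjusted p = 0.372, DESeq2 adjusted p = 0.000667).

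**Figure D3:**
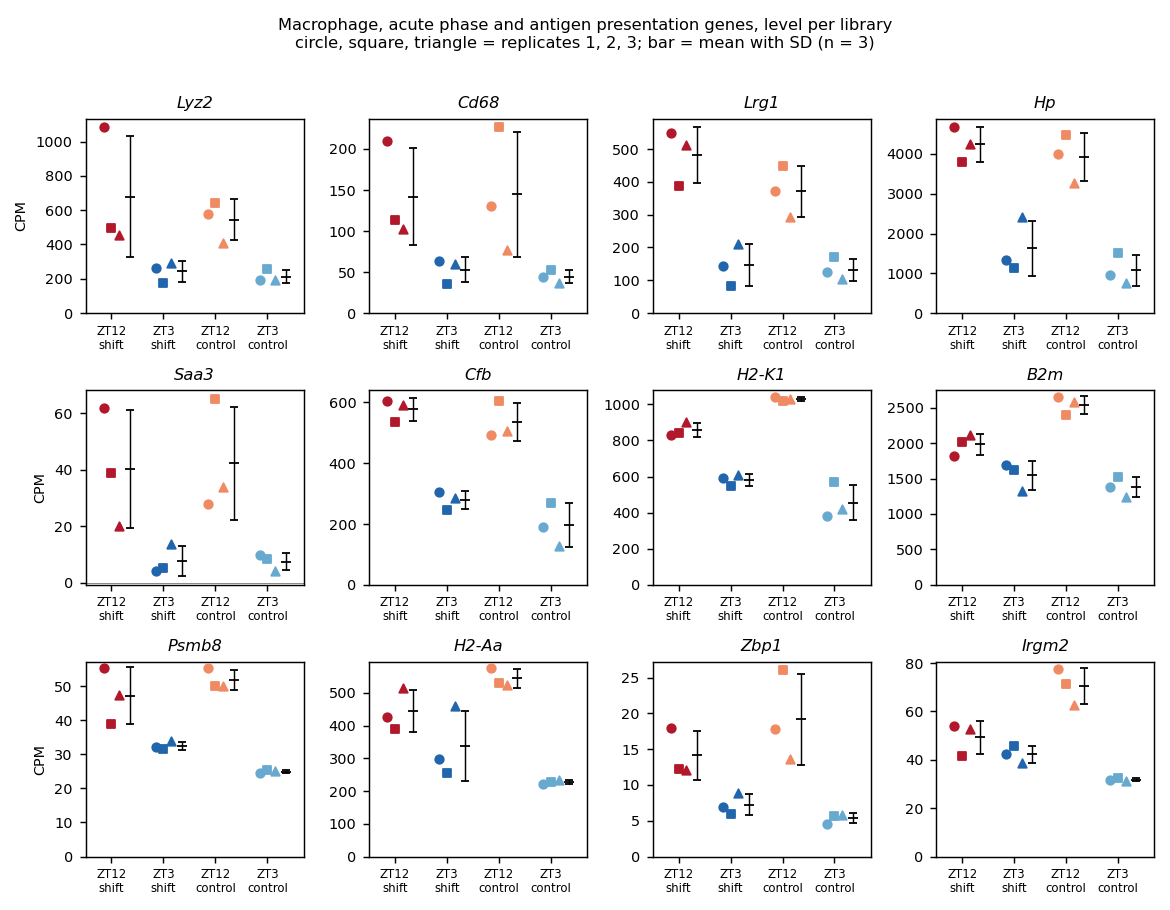
Level (CPM) of 12 macrophage, acute phase, antigen presentation and interferon response genes in each library of the 4 groups, with the mean and SD of 3 libraries beside the points. All 3 ZT12 shiftwork libraries lie above all 3 ZT3 shiftwork libraries for each gene except H2-Aa and Irgm2; for H2-K1 and B2m the ZT12 control libraries lie above the ZT12 shiftwork ones.

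Genes of the extracellular matrix leaned higher at ZT12. Of 20 collagen chains, 18 were higher (median 0.46, or 0.30 without ZT3 replicate 3), 5 without overlap. Col1a1, a chain of the main fibrillar collagen, stood at 761, 568 and 594 CPM at ZT12 and at 386, 347 and 480 CPM at ZT3 (0.66 ± 0.19, DESeq2 adjusted p = 0.0478). Of 33 elastic fibre and crosslinking genes, 28 were higher (median 0.39), 9 without overlap. Eln, which encodes elastin, stood at 82.4, 117 and 102 CPM at ZT12 and at 61.1, 52.1 and 52.3 CPM at ZT3 (0.86 ± 0.22, DESeq2 adjusted p = 0.0283). All ZT12 libraries exceeded all ZT3 libraries for both genes, whereas in controls Eln differed by -0.28, with an interaction of 1.14 ± 0.31 (unadjusted p = 0.00441, DESeq2 adjusted p = 0.0370). Smooth muscle genes summed to 771, 701 and 766 CPM at ZT12 control and to 10916, 516 and 8230 CPM at ZT3 control. ZT3 control replicates 1 and 3 were also the libraries with vas deferens transcripts. The part of these transcripts in the Eln interaction was not tested. Fbln2, a fibulin of elastic fibres and basement membranes, gave 0.95 ± 0.22 (DESeq2 adjusted p = 0.0119). Of 18 metalloproteinases and inhibitors, 14 were higher (median 0.51), 6 without overlap, and 3 passed DESeq2's test (against 0.931% of all genes). These were Mmp23 (0.86 ± 0.22), Mmp2, a gelatinase (0.68 ± 0.17), and Adamts2, the protease that trims procollagen ends (0.61 ± 0.17). Tgfbi, a matrix protein induced by TGF-beta, stood at 246, 190 and 146 CPM at ZT12 and at 134, 88.1 and 117 CPM at ZT3 (0.78 ± 0.21, DESeq2 adjusted p = 0.0473).

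Immediate early genes, which respond within minutes to signals and to handling of tissue, were higher at ZT12 in 20 of 26, with a median of 0.31, or 0.59 without ZT3 replicate 3. Klf2, a shear-responsive factor of endothelium, stood at 64.1, 64.8 and 56.2 CPM at ZT12 and at 37.6, 43.1 and 37.5 CPM at ZT3 (0.65 ± 0.18, edgeR unadjusted p = 0.00529). Fos stood at 15.3, 24.8 and 11.2 CPM at ZT12 and at 7.50, 4.47 and 8.18 CPM at ZT3 (1.35 ± 0.73), and its partner Junb gave 0.64 ± 0.39. The groups of all 3 genes did not overlap. The control median was -0.77, and 9 of 26 members had a positive interaction with unadjusted p under 0.05 (against 4.35% of all tested genes). A negative one at that threshold was found for 1 member (against 5.79%). Junb was among the positive (1.78 ± 0.56, unadjusted p = 0.00974). The list's summed level in controls was 1137, 1208 and 1046 CPM at ZT12 and 869, 1944 and 1795 CPM at ZT3. The control groups thus overlapped, with ZT3 control replicate 1 below every ZT12 control library. Hspb1, a small heat shock protein, stood at 17.0, 18.8 and 15.6 CPM at ZT12 and at 11.2, 12.8 and 10.2 CPM at ZT3 (0.59 ± 0.13, DESeq2 adjusted p = 0.00787). Of 20 heat shock genes 12 lay higher, with a median of 0.05, or 0.09 without ZT3 replicate 3. Cirbp, an RNA-binding protein induced by cold, gave -0.68 ± 0.30, or -0.33 without ZT3 replicate 3.

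Cholesterol synthesis and uptake genes, the targets of the sterol-regulated transcription factor SREBP2, lay mostly higher at ZT12. Of 24 genes 19 were higher, 10 without overlap, with a median of 0.43, or 0.26 without ZT3 replicate 3. In controls 3 of 24 were higher, with a median of -0.61. The summed level in controls was 2213, 2751 and 1649 CPM at ZT12 and 1630, 4253 and 2993 CPM at ZT3, so the control groups overlapped, with ZT3 control replicate 1 the lowest of the 6. A positive interaction with unadjusted p under 0.05 was found for 9 of 24 genes, against 4.35% of all tested genes, and edgeR called none after adjustment. Insig1, which holds SREBP in the endoplasmic reticulum, stood at 722, 621 and 755 CPM at ZT12 and at 345, 418 and 185 CPM at ZT3 (1.15 ± 0.49). Its groups did not overlap, and replicate 3 was the lowest of the ZT3 libraries. Tm7sf2, a sterol reductase, stood at 9.68, 9.49 and 10.9 CPM at ZT12 and at 6.93, 7.87 and 5.12 CPM at ZT3 (0.59 ± 0.24), with an interaction of 1.77 ± 0.34 (edgeR unadjusted p = 0.000436, adjusted p = 0.372, DESeq2 adjusted p = 0.000427). Fdft1, the squalene synthase, went the other way. It stood at 38.0, 35.8 and 35.2 CPM at ZT12 and at 56.1, 61.0 and 113 CPM at ZT3 (-1.07 ± 0.25, or -0.70 without ZT3 replicate 3; DESeq2 adjusted p = 0.00860).

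Genes of the fat cell itself depended on ZT3 replicate 3, the library with the fewest adipocyte transcripts. The median of 19 adipocyte identity and adipokine genes was 0.03 with it and -0.35 without it, when 4 of 19 lay higher. Adipoq, which encodes adiponectin, stood at 1645, 2256 and 2291 CPM at ZT12 and at 3489, 3581 and 998 CPM at ZT3 (-0.38 ± 0.48, or -0.78 without that library). Its ZT12 libraries lay below ZT3 replicates 1 and 2 and above replicate 3. Fasn, the fatty acid synthase, stood at 8021, 8301 and 7771 CPM at ZT12 and at 8530, 12686 and 1709 CPM at ZT3, and its fold change of 0.07 ± 0.63 turned to -0.41 without ZT3 replicate 3. The median of 22 fatty acid and triglyceride synthesis genes moved likewise, at 0.07 with and -0.19 without that library, and that of 18 lipolysis and lipid droplet genes at 0.05 and -0.24. Lep, which encodes leptin, lay higher at ZT12 in all comparisons of single libraries, at 4186, 4186 and 3953 CPM, against 3096, 3420 and 1816 CPM at ZT3 (0.56 ± 0.31, or 0.32 without replicate 3). Cebpb, an early factor of fat cell differentiation, stood at 59.9, 65.2 and 46.8 CPM at ZT12 and at 36.5, 40.7 and 23.3 CPM at ZT3 (0.77 ± 0.26). Cpt1a, which admits fatty acids to mitochondria, gave 0.40 ± 0.14 without overlap. Ppargc1a, a coactivator of mitochondrial genes, lay below without overlap (-0.97 ± 0.39, or -0.58 without ZT3 replicate 3). Of 36 nuclear genes for oxidative phosphorylation, 33 lay lower, each by little (lowest -0.29, median -0.16, or -0.38 without ZT3 replicate 3), and 0 did so without overlap. Ndufv2, a subunit of complex I, gave -0.23 ± 0.12. Without ZT3 replicate 2 the median of these genes was 0.05.

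**Figure D4:**
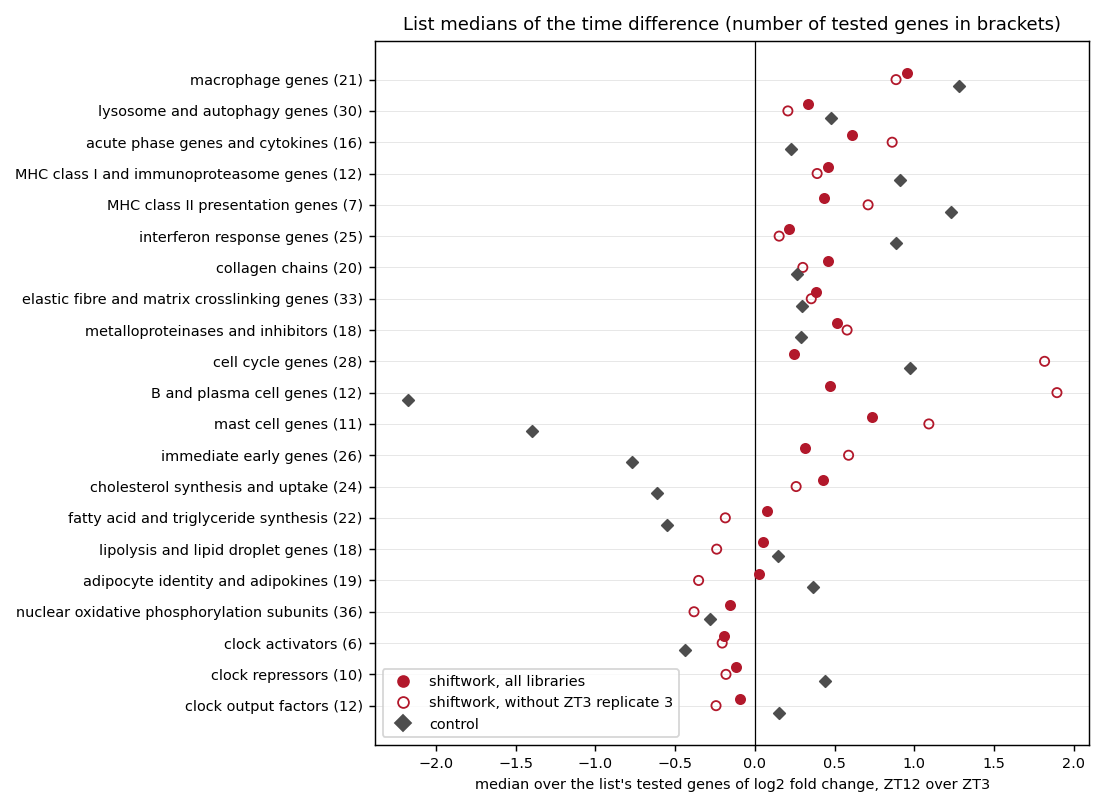
Median log2 fold change (ZT12 over ZT3) over the tested genes of 21 gene lists, as filled circles for shiftwork, open circles for shiftwork without ZT3 replicate 3 and diamonds for control mice. The macrophage, lysosome, acute phase, MHC and interferon lists lie right of 0 in both schedules, the cholesterol list lies at 0.43 under shiftwork and -0.61 in controls, and the open circle of the adipocyte list (-0.35) lies left of the filled one (0.03).

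The 12 genes higher at ZT12 with the smallest p and no overlap ranged in fold change between 0.46 and 1.72. Each had an edgeR adjusted p = 0.280 and a DESeq2 adjusted p of 0.00852 or less. They were chosen by their edgeR p in the same counts, so their DESeq2 p-values are not separate evidence. Lrg1, a secreted glycoprotein of the acute phase, had the largest fold change. It stood at 549, 387 and 513 CPM at ZT12 and at 144, 83.4 and 211 CPM at ZT3 (1.72 ± 0.33, DESeq2 adjusted p = 0.000566). Lmo2, a transcriptional adaptor of blood and endothelial cells, stood at 47.6, 40.9 and 40.2 CPM at ZT12 and at 26.1, 27.1 and 21.8 CPM at ZT3 (0.78 ± 0.13). Acsl5, which activates long-chain fatty acids, stood at 151, 161 and 129 CPM at ZT12 and at 105, 97.7 and 90.8 CPM at ZT3 (0.59 ± 0.11). Arpc1b, a subunit of the actin-branching ARP2/3 complex, gave 0.83 ± 0.16, and Arrb2, which encodes the receptor adaptor beta-arrestin 2, gave 0.72 ± 0.15. The death receptor gene Tnfrsf21 gave 0.53 ± 0.11 and the lipid transporter gene Abca7 0.46 ± 0.10. Also among them were Tmem132a (0.68), Lrmp (0.83), Syt15 (0.92) and Scamp5 (0.60). All 12 were also higher at ZT12 in controls. Only Scamp5 had an interaction with unadjusted p under 0.05 (0.42 ± 0.18, edgeR unadjusted p = 0.0371), against 10.1% of all tested genes.

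The 12 genes lower at ZT12, chosen in the same way, ranged in fold change between -1.29 and -0.46. Gpd2, the mitochondrial glycerol phosphate dehydrogenase, had the smallest p of all genes tested (edgeR unadjusted p = 6.25e-05, adjusted p = 0.280). It stood at 60.2, 66.9 and 55.2 CPM at ZT12 and at 111, 139 and 195 CPM at ZT3 (-1.29 ± 0.20, or -1.05 without ZT3 replicate 3; DESeq2 adjusted p = 2.79e-06). Gpx3, the secreted glutathione peroxidase, stood at 303, 405 and 356 CPM at ZT12 and at 591, 644 and 581 CPM at ZT3 (-0.77 ± 0.17). Ptch1, the hedgehog receptor, stood at 61.5, 60.6 and 64.1 CPM at ZT12 and at 84.9, 92.3 and 83.9 CPM at ZT3 (-0.49 ± 0.10). For Gpx3 and Ptch1 the 3 ZT3 libraries lay close together, replicate 3 included. Pde1a, a phosphodiesterase of cyclic nucleotides, gave -0.80 ± 0.15 with an interaction of -0.73 ± 0.20 (unadjusted p = 0.00501). Gsta4, which detoxifies lipid peroxidation products, gave -0.80 ± 0.18, Mterf3, a factor of mitochondrial transcription and ribosome assembly, -0.46 ± 0.10, and Ank2, an ankyrin adaptor, -0.55 ± 0.11. The zinc finger genes Zfp518a and Zfp26 gave -0.59 and -0.48, Eml5 -0.72 and Map7d3 -0.83, with Fdft1 described above. Map7d3 differed from controls, where it gave 0.31 (interaction -1.14 ± 0.24, unadjusted p = 0.00085, adjusted p = 0.372). In the fit without 3 ZT3 libraries, edgeR called Gpd2, Ptch1 and Ank2 among 75 genes (0.485%, 43 higher or 0.278% and 32 lower or 0.207%), of which 12 were also called by DESeq2 with all libraries.

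**Figure D5:**
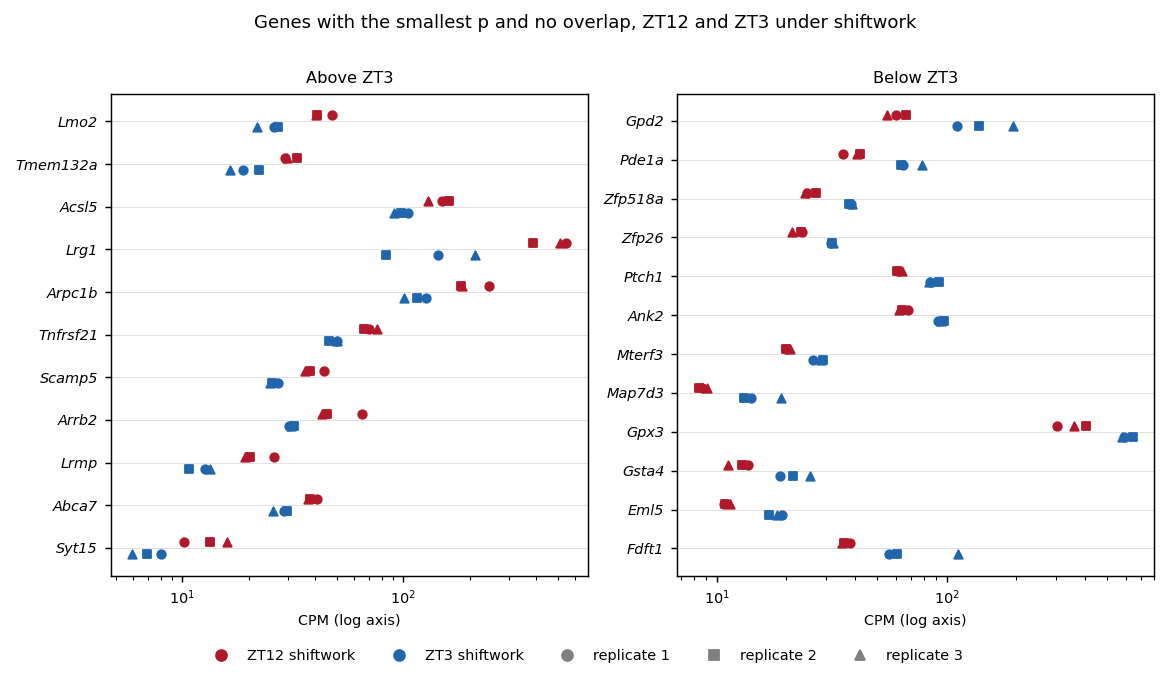
Level (CPM, log axis) of the named genes higher and lower at ZT12 in each shiftwork library, ZT12 in red above ZT3 in blue, with circles, squares and triangles for replicates 1, 2 and 3. The groups do not overlap, which was a condition of the choice; ZT3 replicate 3 is the outermost ZT3 library for Gpd2 (195 CPM) and Fdft1 (113 CPM).

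Lists of other cell types moved with single libraries. All 28 cell cycle genes lay higher at ZT12 without ZT3 replicate 3 (median 1.82) and 18 did so with it (median 0.25), since that library had a summed level of 952 CPM, against 214 and 215 CPM in the other ZT3 libraries. The ZT12 sum was 827, 311 and 339 CPM, and without ZT12 replicate 1 the median was -0.37. Ccna2, the cyclin of DNA replication, stood at 35.3, 9.35 and 11.4 CPM at ZT12 and at 5.51, 4.03 and 11.2 CPM at ZT3 (1.43 ± 0.59). B and plasma cell genes were higher in 11 of 12, with a median of 0.47, or 1.89 without ZT3 replicate 3, and -2.18 in controls. Their sum in controls was 37.9, 36.6 and 37.4 CPM at ZT12 and 87.8, 98.0 and 317 CPM at ZT3. Under shiftwork Cd79a, part of the antigen receptor complex on B cells, was measured at 3.08, 3.82 and 1.80 CPM at ZT12 and at 0.71, 0.44 and 4.38 CPM at ZT3. Its groups overlapped through ZT3 replicate 3 alone, and without it DESeq2 called the gene (adjusted p = 0.000926). Among 11 mast cell genes 8 were higher and 5 lay above without overlap, such as the carboxypeptidase gene Cpa3 at 17.2, 12.4 and 8.18 CPM at ZT12 and at 6.17, 2.67 and 7.13 CPM at ZT3 (1.24 ± 0.47). Kit, the growth factor receptor of mast cells and of germ cells, lay below without overlap, at 12.7, 14.6 and 18.4 CPM at ZT12 and at 28.0, 23.2 and 41 CPM at ZT3 (-1.01 ± 0.34). The mast cell median was 0.73 under shiftwork, 0.34 without ZT3 replicate 2, 0.21 without ZT12 replicate 3, and -1.40 in controls. The list's sum in controls was 79.6, 88.1 and 76.8 CPM at ZT12 and 168, 84.3 and 142 CPM at ZT3. ZT3 control replicates 1 and 3, with the higher sums, were the libraries with vas deferens transcripts. Under shiftwork Plvap, a protein of endothelial fenestrae, stood at 70.3, 118 and 111 CPM at ZT12 and at 53.5, 52.4 and 57.3 CPM at ZT3 (0.87 ± 0.19, DESeq2 adjusted p = 0.00787). The median of 15 blood endothelial genes was only 0.07, or -0.21 without ZT3 replicate 3. Smooth muscle genes were higher in 9 of 10, with a median of 0.70, or 1.54 without ZT3 replicate 3; Tagln, a marker of contractile cells, stood at 73.5, 149 and 130 CPM at ZT12 and at 38.5, 32.8 and 69.5 CPM at ZT3. Erythroid genes summed to 775, 4027 and 1890 CPM at ZT12 and to 1813, 973 and 431 CPM at ZT3, a measure of blood left in the tissue. The part of these cell types and of blood in the differences above was not tested.

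Genes that differed by time in controls were then followed under shiftwork; the 2 comparisons use different libraries of the same fit. In controls edgeR called 559 of 15141 genes (3.69%). Of 443 called higher at ZT12 (2.93%), 408 were higher under shiftwork as well (against 46.4% of all tested genes), 255 of them without overlap (against 9.05%). Their median was 0.45 under shiftwork and 1.06 in controls. Of 116 called lower at ZT12 in controls (0.766%), 65 were lower under shiftwork, where 46.4% of all tested genes lay higher. Of the 116 genes, 30 lay lower without overlap (against 7.59% of all tested genes). The median of the 116 genes was -0.05 under shiftwork and -1.76 in controls. The genes called in controls were chosen for their difference there, so the comparison of the medians is a description only and no interaction is counted over them. The part of the vas deferens transcripts in ZT3 control replicates 1 and 3 in these counts was not tested.

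The 6 genes with the smallest interaction p, among those eligible under the rule given below, included 3 for which the shiftwork groups did not overlap. Cth, which makes cysteine from cystathionine, stood at 16.5, 12.9 and 11.9 CPM at ZT12 shiftwork and at 9.74, 10.3 and 7.48 CPM at ZT3 shiftwork. In controls it stood at 9.5, 11.5 and 9.91 CPM at ZT12 and at 23, 21.4 and 19.8 CPM at ZT3, so its order was the reverse. The interaction of Cth was 1.64 ± 0.25 (edgeR adjusted p = 0.372, DESeq2 adjusted p = 1.47e-06). Rhoj, a small GTPase of endothelial cells, likewise gave 0.48 ± 0.13 under shiftwork and -0.57 in controls. H2-Q4, a class I gene, was higher at ZT12 in both schedules, by 0.51 ± 0.12 under shiftwork and by 1.44 in controls. Fyn, a Src family kinase, stood at 43.0, 40.3 and 41.2 CPM at ZT12 shiftwork and at 43.7, 42.5 and 42.7 CPM at ZT3 shiftwork, where controls gave 0.67 (interaction -0.72 ± 0.12, DESeq2 adjusted p = 5.51e-06). Peg3, an imprinted gene, stood at 41.2, 72.9 and 97.2 CPM at ZT12 shiftwork and at 87.6, 112 and 107 CPM at ZT3 shiftwork. Controls had 168, 74.5 and 117 CPM of Peg3 at ZT12 and 24.1, 15.6 and 8.59 CPM at ZT3, and its interaction was -3.42 ± 0.60 (DESeq2 adjusted p = 3.58e-05). Irgm2, described with the interferon response genes, was the last of the 6.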

How the data were processed

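The authors deposited whole-number read counts per gene symbol and log2 FPKM values; per the submitters' processing notes, STAR, HTSeq, edgeR, DESeq2 and limma were used with mm10 or GRCm38. Versions and the strand setting of the counting are not given in the sources used here. The deposited counts of 12 epididymal libraries in 4 groups were fitted together with edgeR 4.0.16 (R 4.3.3; TMM, filterByExpr with a minimum count of 10 and total of 15, robust quasi-likelihood test, Benjamini-Hochberg adjusted p under 0.05), and all unadjusted p-values are from this fit. DESeq2 1.42.0 and limma 3.58.1 on the deposited log2 FPKM values were alternatives. SE is the fold change divided by the square root of F. The procedure was tested on simulated data in which no single library held transcripts of another tissue. That test therefore does not show how such libraries affect the calls. Genes named by rule are the clock genes, the 12 higher and 12 lower with the smallest p and no overlap, and the 6 with the smallest interaction p. Both choices by p were made among genes that reached a minimum average level. They left out predicted genes, genes named by a clone or accession, and antigen receptor segments. Other examples were chosen after their values were seen. Members and lists were chosen with earlier results of these data known. No label says that a replicate number marks a shared cage, litter or day, so the main fit did not pair the samples. Some genes counted in these sets are not reported here by name.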

Additional observations from a re-analysis of the deposited data

How the results depend on the processing

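With all libraries edgeR called 0 genes for time and 0 for the interaction; DESeq2 called 266 and 187, and DESeq2 without the spermatid library 768 and 1429. With 3 ZT3 libraries left out edgeR called 75 and 7, and with the spermatid and intestine libraries left out it called 1 for the interaction. Leaving out each replicate in turn gave 0 to 0 genes for time and 0 to 186 for the interaction, where ZT3 control replicate 2 gave 186, ZT3 shiftwork replicate 3 gave 15 and ZT3 control replicate 1 gave 1. Genes called in the same direction in both schedules numbered 0 with edgeR, 137 with DESeq2 and 33 with 3 ZT3 libraries left out. The causes were not tested. With the replicate block the counts were 0 and 0, and same-numbered samples correlated at -0.242, 0.118 and -0.163. Arntl2 changed sign with RLE factors (-0.014), DESeq2 (-0.012), the stricter filter (-0.012) and only 6 libraries (-0.00078), and Cry2 with the replicate block (0.0015). Per3 came to 0 with limma, since the means of its deposited log2 FPKM values were equal at both times. Without the spermatid and intestine libraries, the sign changed for Arntl2 (-0.28), Npas2 (0.023), Rora (-0.28), Per2 (-0.17), Bhlhe41 (0.092), Usp2 (0.27), Wee1 (0.16), Nampt (-0.34), Klf15 (-0.43) and Fasn (-0.44). Without 3 ZT3 libraries it changed for Arntl2 (-0.25), Npas2 (0.42), Rora (-0.18), Usp2 (0.49), Wee1 (0.20), Nampt (-0.27), Klf15 (-0.36) and Fasn (-0.42). Leaving out single replicates, the ranges that crossed 0 were -0.66 to 0.16 for Arntl, -0.24 to 0.23 for Arntl2, -0.18 to 0.021 for Bhlhe41, -0.26 to 0.043 for Clock, -0.25 to 0.12 for Cry2, -0.41 to 0.016 for Dbp, -0.41 to 0.65 for Fasn, -0.35 to 0.34 for Klf15, -0.32 to 0.14 for Klf9, -0.26 to 0.28 for Nampt, -1.72 to 0.43 for Npas2, -0.12 to 0.39 for Per2, -0.33 to 0.19 for Per3, -0.17 to 0.23 for Rora, -0.29 to 0.045 for Tef, -2.32 to 0.50 for Usp2 and -0.74 to 0.22 for Wee1. The alternatives that left out 3 ZT3 libraries, or the spermatid and intestine libraries, were planned with earlier results of these data known, and DESeq2 without the spermatid library was chosen after seeing the data.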
